A study of Mus musculus with 786 samples.

Results

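Csf3r-expressing stem and progenitor cells were single haematopoietic stem cells (HSC) and early multipotent precursors (MPP1) of mouse bone marrow with Csf3r at an FPKM of 1 or more. FPKM counts the fragments of a gene relative to its length and to the depth of its library. The cells were chosen by their measured Csf3r level, among wells labelled with exactly 1 cell and 1000 or more genes at FPKM 1. This left 373 of 460 such wells, and 72 of the 373 cells (19.3%) were Csf3r-positive. The other 301 cells were Csf3r-negative, of which 275 listed Csf3r at 0 and 26 lay between 0 and 1. Because Csf3r chose the cells, its shares and levels are given as a description, with no test.

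The series profiled bone marrow of C57BL6 mice aged 6 to 8 weeks by Smart-seq on plates of single wells, beside bulk libraries of 18 sorted populations. HSC were sorted as CD48-CD150+CD135-CD34- and MPP1 as CD48-CD150+CD135-CD34+, so the gates differ in CD34 alone. The cells came from 1 plate of MPP1 and 1 plate of HSC from bled mice, and from MPP1 plates 1 and 2 and HSC plates 1, 2 and 3, whose titles do not name bleeding. HSC plate 3 was made with an RNA spike-in and another library protocol. Its label on growth mentions bled as well as normal mice, so it is not certain that all its cells came from mice that were not bled. No label names a mutation or transgene, and nothing tells if a plate holds cells of 1 mouse or of several, so the spread between plates may be technical in part.

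Csf3r encodes the receptor for granulocyte colony-stimulating factor (G-CSF), the main cytokine of neutrophil production. The receptor has no kinase of its own and signals through Jak kinases to Stat3 and Stat5, with Socs3 as a feedback inhibitor. Its expression is highest in granulocyte-macrophage progenitors and neutrophils, and G-CSF also mobilises stem cells from the marrow into blood. Myeloid priming means that an uncommitted cell already transcribes genes of the granulocyte and monocyte lineages. The question addressed here was whether Csf3r-positive cells carried more transcripts of other myeloid genes than Csf3r-negative cells of the same plate.

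Csf3r-positive cells occurred on every plate. They made up 8 of 50 cells (16%) on the bled MPP1 plate, 25 of 51 (49.0%) on MPP1 plate 1 and 13 of 48 (27.1%) on MPP1 plate 2. Among HSC they were 2 of 48 (4.17%) on the bled plate, 5 of 50 (10%) on plate 1, 11 of 53 (20.8%) on plate 2 and 8 of 73 (11.0%) on plate 3. The share was highest on MPP1 plate 1, with an exact 95% binomial (Clopper-Pearson) interval of 34.8% to 63.4%, and lowest on the bled HSC plate, at 0.509% to 14.3%. Intervals of plates next to each other in this order of shares overlapped, and all of them cover counting error only. With every cell above 0 counted in, MPP1 plate 1 was still highest, at 49.0%, but the lowest were HSC plate 3 at 12.3% and the bled HSC plate at 12.5%. At the threshold of 1, MPP1 plates 1 and 2 averaged 38.1% ± 15.5 and the 3 HSC plates averaged 13.9% ± 5.95 (SD over plates).

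**Figure D1:**
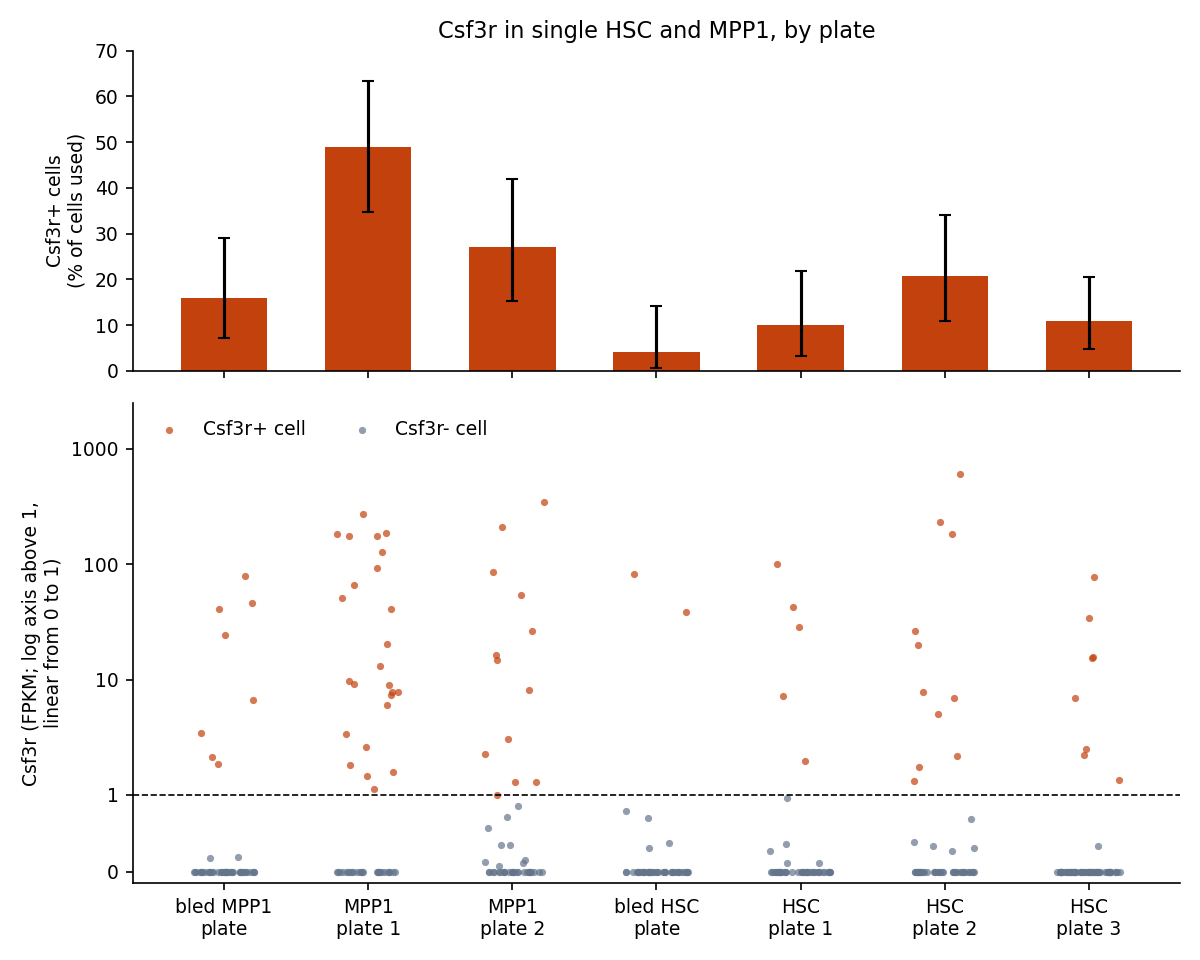
Top, Csf3r+ cells as a percentage of the cells used on each plate, with exact 95% binomial intervals; bottom, Csf3r in FPKM in every cell, with the threshold of 1 as a dashed line (log axis above 1, linear from 0 to 1). MPP1 plate 1 stands highest at 49.0%, and positive cells spread from just over 1 to 611 FPKM.

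Levels within the positive cells spread widely on most plates. On the bled MPP1 plate they ran from 1.86 to 79.4 FPKM with a median of 15.6, on MPP1 plate 1 from 1.13 to 274 with a median of 9.67, and on MPP1 plate 2 from 1.01 to 350 with a median of 14.7. The 2 cells of the bled HSC plate held 38.1 and 82.1 FPKM. HSC plate 1 ran from 1.95 to 99.99 FPKM (median 28.3), HSC plate 2 from 1.32 to 611 (median 7.75) and HSC plate 3 from 1.35 to 76.9 (median 11.1). The ranges overlapped on all 7 plates. In all, 37 positive cells held at least 10 FPKM, 11 held at least 100, and 12 held under 2. The cells just inside the threshold had 1.01, 1.13, 1.29, 1.29 and 1.32 FPKM, and those just outside it had 0.956, 0.853, 0.787, 0.712 and 0.701 FPKM.

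Wells labelled with no cell give the background of this call. Csf3r reached FPKM 1 in 2 of 150 such wells (1.33%, exact 95% interval 0.162% to 4.73%), 1 on MPP1 plate 1 and 1 on MPP1 plate 2, and in 1 of the 20 no-cell wells that held 1000 genes or more. Wells labelled with 2 or more cells, which were left out, showed it in 10 of 62.

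Most positive cells carried the transcript of Kit, a marker of early blood-forming cells. Kit, the stem cell factor receptor, was detected at FPKM 1 in 65 of 72 positive and 252 of 301 negative cells. These counts, and the counts of cells below, pool plates of unequal make-up: 46 of the 72 positive cells but 103 of the 301 negative cells were MPP1. Cd48, which both gates exclude at the surface, was found in 3 of 72 positive and 7 of 301 negative cells. Markers of mature neutrophils, which carry the most G-CSF receptor, were at or near 0 in both classes. Of 11 such genes, Ngp, Ltf, Lcn2, Mmp8 and Retnlg were in no cell, S100a8 was in 1 positive and 2 negative cells, and Cxcr2 in 2 positive and 2 negative cells. None of the 11 reached the 5% of cells needed for a test. The summed FPKM of these genes ran from 0 to 446 in single positive cells and from 0 to 491 in single negative cells, with plate medians of 0 in both.

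A well in which more genes are detected is more likely to show any given gene, Csf3r included. Positive cells had a median of 4014 genes other than Csf3r on the bled MPP1 plate, against 2879.5 in negative cells there. In positive cells the medians were 2514 and 2565 genes on MPP1 plates 1 and 2, and 2192, 2683 and 1983 on HSC plates 1, 2 and 3. In negative cells they were 2622.5 and 2464 genes on MPP1 plates 1 and 2, and 2120, 2587 and 1969 on HSC plates 1, 2 and 3. The bled MPP1 plate stood apart, and the other 5 plates differed by -108.5 to 101 genes. Over the 6 plates with at least 3 positive cells the difference of medians was 218 ± 456 genes (SD), higher in 5 of 6 plates (exact permutation test by sign flips over plates, two-sided, p = 0.219, where the smallest possible is 0.0312). Without the bled MPP1 plate it was 34.9 genes (exact permutation p = 0.438). The number of genes detected was therefore a covariate in the log2 differences and the adjusted counts per cell below, while shares, mean FPKM, counts of cells and rank correlations are not adjusted for it.

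**Figure D2:**
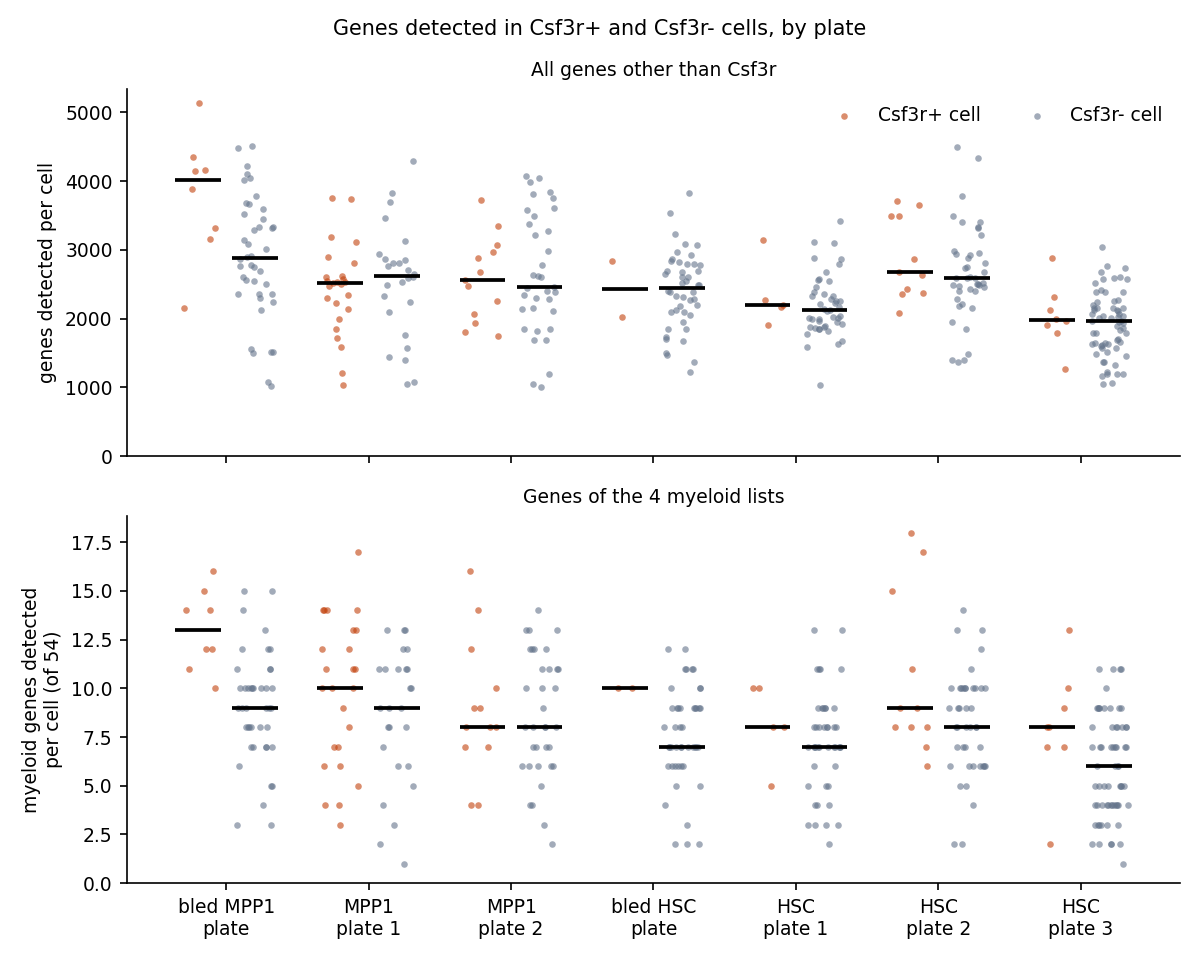
Genes detected per cell at FPKM 1 or more (top, all genes other than Csf3r; bottom, the 54 genes of the 4 myeloid lists), 1 point a cell, Csf3r+ cells left of Csf3r- cells on each plate, bars at the medians. In the top panel the bled MPP1 plate has the widest gap, 4014 against 2879.5 genes.

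Each gene was compared within each plate on the log2(FPKM + 1) scale with the number of genes detected as covariate, and the 6 plate differences were tested together. The bled HSC plate, with 2 positive cells, had too few for a difference and stayed out. The fit thus held 70 positive and 255 negative cells and 9111 genes, each seen in at least 5% of cells. No gene passed an adjusted p of 0.05 (limma with Benjamini-Hochberg adjustment, 0 of 9111, 0%, smallest adjusted p = 0.924). At an unadjusted p under 0.05, limma gave 473 genes (5.19%), of which 251 (2.75%) were higher and 222 (2.44%) lower in positive cells. No other tool was run, because the values are FPKM and not counts. All gene differences below are therefore values that did not pass the threshold, ordered by size and by the spread over plates.

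**Figure D3:**
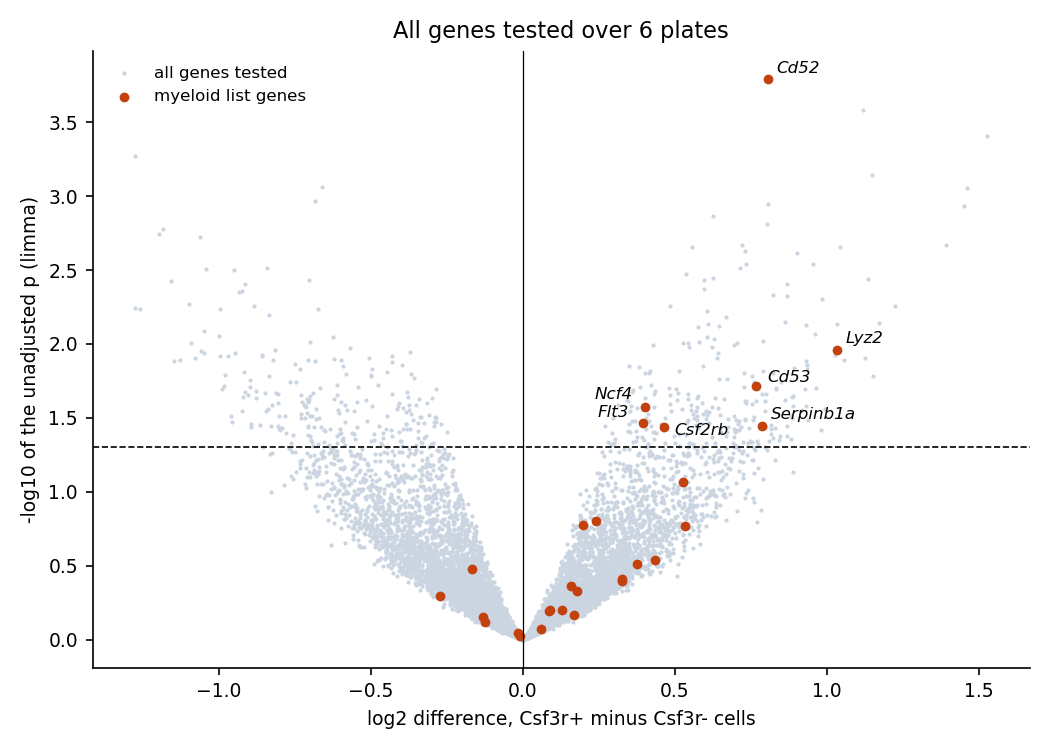
Log2 difference between Csf3r+ and Csf3r- cells (x axis) against -log10 of the unadjusted limma p (y axis) for 9111 genes over 6 plates, with 28 myeloid list genes in colour and p = 0.05 as a dashed line. No gene passes the adjusted threshold, and 7 coloured points, all on the positive side, lie above the line.

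The myeloid genes leaned towards the positive cells, by differences that were small beside their spread. The 54 genes came from 4 lists, for myeloid transcription factors, primary granule and granulocyte-macrophage progenitor genes, myeloid cytokine receptors, and myeloid surface and effector genes. Of the 28 that could be tested, 22 had a positive difference and 6 a negative one, where 48.5% of all genes tested had a positive difference. The median difference was 0.22 in these 28 genes and -0.01 in all genes tested. At an unadjusted p under 0.05, 7 of the 28 (25%) were higher, against 2.75% of all genes, and 0 were lower, against 2.44%; 0 of 28 passed the adjusted threshold (limma). Cd52 and Ncf4, both among the 7, were in under 5% of negative cells and reached the test only through the positive cells. With genes in at least 5% of negative cells, a filter chosen after the values were seen, the count was 5 of 26 (19.2%) against 2.52% of all genes. With genes in at least 10% of all cells it was 3 of 18 (16.7%) against 2.83%.

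The lean was seen on each plate. The median difference of the 28 genes was 0.34 on the bled MPP1 plate, 0.28 and 0.12 on MPP1 plates 1 and 2, and 0.24, 0.36 and 0.20 on HSC plates 1, 2 and 3. The median of all genes lay between -0.15 and 0 on these plates. The count of 7 rested on several plates. It was 2 without MPP1 plate 1, 4 without HSC plate 2, 4 without HSC plate 3, and between 5 and 7 without any of the other 3 plates, beside 2.34% to 2.80% of all genes. Each of these fits gave 20 to 24 positive differences among the 28.

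Counted per cell, more genes of the same 4 lists were detected in positive cells. They showed on average 9.74 of the 54 genes at FPKM 1, against 7.92 in negative cells (mean over 6 plates). With genes detected as covariate the difference was 1.36 ± 0.773 genes (SD over plates). It was 2.43 on the bled MPP1 plate, 1.42 and 0.31 on MPP1 plates 1 and 2, and 0.64, 1.74 and 1.62 on HSC plates 1, 2 and 3. All 6 were positive, although the cells of both classes overlapped widely on each plate. Leaving out Lyz1, Lyz2 and Cd52 gave 1.04 ± 0.749 genes, positive on 5 of 6 plates. Other lists differed as well. The same count over 5 markers of antigen presentation was 0.344 ± 0.343, positive on 5 of 6 plates, over 9 B and plasma cell markers 0.091 ± 0.044, positive on 6 of 6, and over 7 endothelial and stromal markers 0.122 ± 0.209, positive on 4 of 6. Over 19 HSC program genes it was -0.448 ± 0.661, over 16 megakaryocyte genes -0.221 ± 0.495, over 14 erythroid genes -0.149 ± 0.239 and over 10 T and NK cell markers -0.083 ± 0.129. These lists differ in length and in how often their genes are seen, so the sizes of these differences do not compare directly. Negative cells showed on average 0.585 antigen presentation, 0.280 B and plasma cell and 0.198 endothelial and stromal markers. They showed 8.98 HSC program, 2.10 megakaryocyte and 1.67 erythroid genes and 0.305 T and NK cell markers. The B and plasma cell count rested almost wholly on Cd79b, in 25 of 72 positive and 78 of 301 negative cells. The log2 difference of Cd79b was 0.13 (SE 0.34), positive on 3 of 6 plates. The T and NK cell count rested largely on Nkg7, which stands in the myeloid lists too. In the other 6 lists counted it lay between -0.041 and 0.025, with a wide spread for S phase (SD 1.07) and G2/M genes (SD 3.24).

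**Figure D4:**
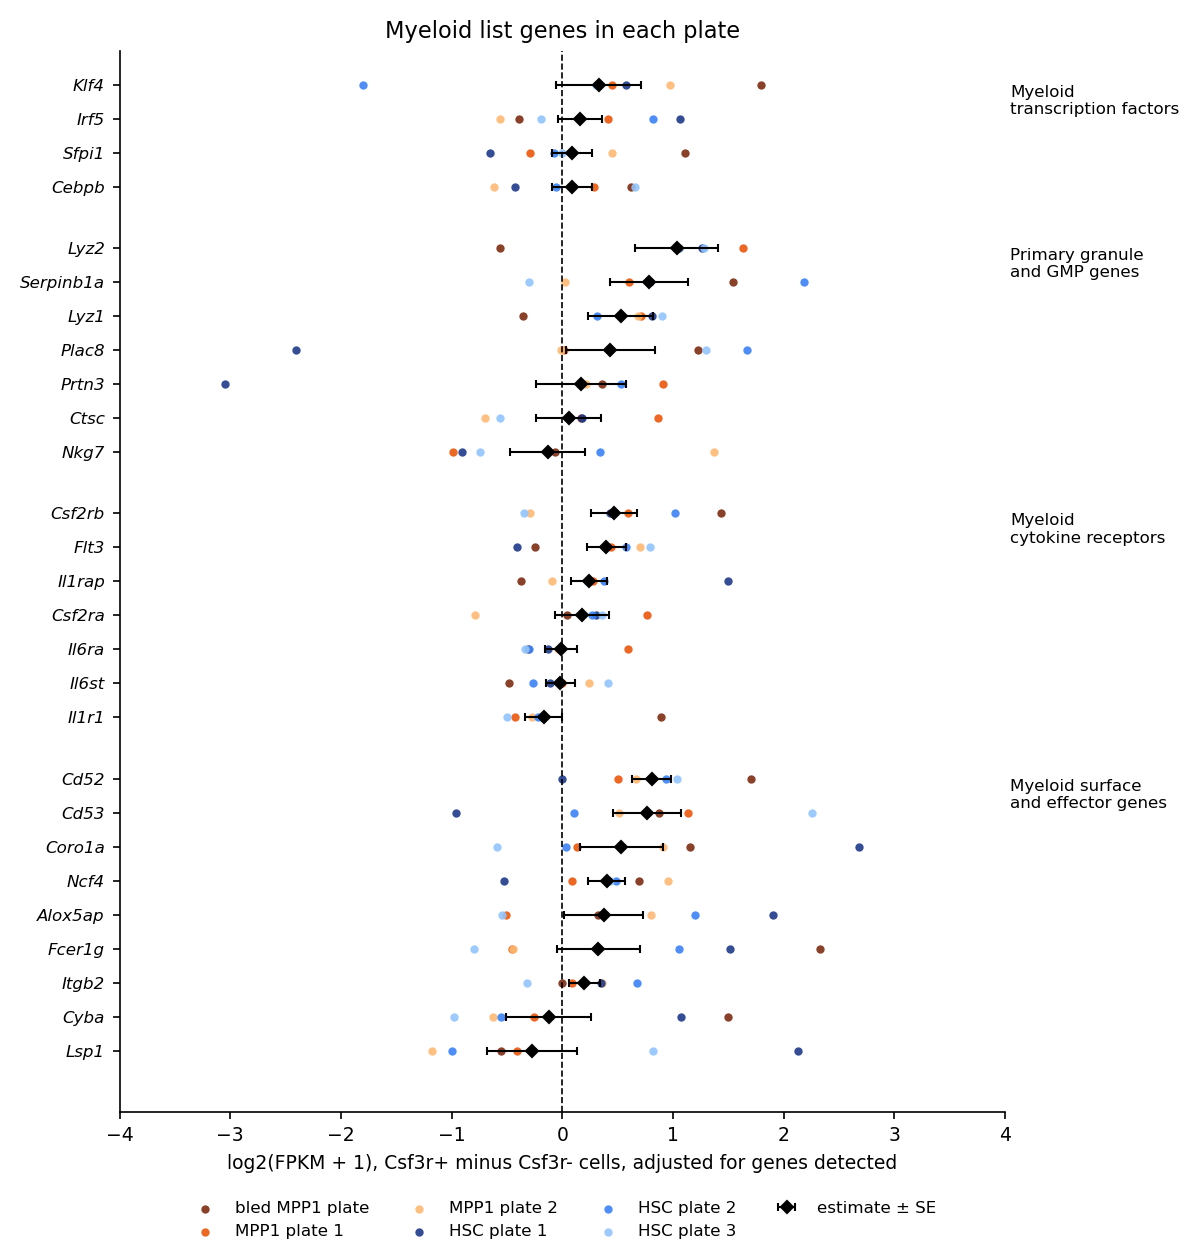
Log2(FPKM + 1) difference between Csf3r+ and Csf3r- cells, adjusted for genes detected, for tested genes of the 4 myeloid lists, with 1 of the 28 not drawn; coloured points are the 6 plates and diamonds the limma estimate with its standard error. Most diamonds lie to the right of 0, and the plates of most genes spread on both sides of it.

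Of the 10 transcription factors of the granulocyte and monocyte lineages, 4 were frequent enough for a test. Cebpa, which is required to form granulocyte-macrophage progenitors, was detected in 2 of 72 positive and 1 of 301 negative cells, and Cebpe, needed for terminal neutrophil maturation, in none. Gfi1, a repressor needed for neutrophils, was in 3 positive and 8 negative cells, and Irf8, which favours monocytes, in 2 positive and 7 negative cells. Sfpi1, the name in these data of Spi1, which encodes PU.1, was in 9 positive and 29 negative cells. Its mean share was 12.9% ± 13.7 of positive cells and 10.0% ± 6.56 of negative cells (SD, n = 6 plates; log2 difference 0.09, SE 0.18). Klf4, a factor of monocyte differentiation, was the most frequent, in 30 of 72 positive (41.7%) and 115 of 301 negative cells (38.2%), with a log2 difference of 0.33 (SE 0.38). Cebpb, a factor of emergency granulopoiesis, was in 17 of 72 positive (23.6%) and 35 of 301 negative cells (11.6%), with a log2 difference of 0.09 (SE 0.18), and Irf5 differed by 0.16 (SE 0.20). All 4 tested factors were on the positive side, each by less than its standard error.

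The main enzymes of primary neutrophil granules were nearly silent. Mpo, myeloperoxidase, was seen in 1 positive and 0 negative cells, Elane, neutrophil elastase, in 0 positive and 2 negative cells, and Ctsg, cathepsin G, in no cell. Prtn3, proteinase 3, was the exception: it was in 43 of 72 positive and 174 of 301 negative cells, with a log2 difference of 0.17 (SE 0.41). Ctsc, the protease that activates these enzymes, differed by 0.06 (SE 0.29), and Plac8 by 0.43 (SE 0.40).

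Lyz2, the macrophage-type lysozyme, had the largest difference of the myeloid genes. It was detected in 60% to 90.9% of positive cells (median plate 65.3%) and in 44.6% to 73.8% of negative cells (median plate 52.5%). The share was higher in positive cells on 6 of 6 plates. Its mean level was 127 FPKM in positive cells on the bled MPP1 plate, 221 and 183 on MPP1 plates 1 and 2, and 310, 203 and 172 on HSC plates 1, 2 and 3. In negative cells the means were 165 FPKM on the bled MPP1 plate, 62.9 and 69.1 on MPP1 plates 1 and 2, and 186, 132 and 97.8 on HSC plates 1, 2 and 3. Positive cells were higher on every plate but the bled MPP1 plate. The log2 difference was 1.04 (SE 0.37, limma unadjusted p = 0.0109, Benjamini-Hochberg adjusted p = 0.924). By plate it lay between 1.05 and 1.63 on the other 5 plates and was -0.56 on the bled MPP1 plate.

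Lyz1, a near-identical neighbour of Lyz2, differed by 0.53 (SE 0.29). Reads of the 2 genes may have been shared between them by the authors' counting, so neither value is certain on its own. Serpinb1a, an inhibitor of neutrophil serine proteases, was detected in 12.5% to 75% of positive cells (median plate 48.9%) and in 23.1% to 60% of negative cells (median plate 36.4%). The ranges overlapped, and the share was higher in positive cells on 3 of 6 plates. Its log2 difference was 0.79 (SE 0.35, limma unadjusted p = 0.0356).

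Of the 7 tested cytokine receptors of myeloid cells, 4 were on the positive side, with a median of 0.18, and the plate medians of the 7 were negative on 3 of 6 plates. Csf2rb, the signalling chain of the GM-CSF, IL-3 and IL-5 receptors, was in 12 positive and 21 negative cells (log2 difference 0.46, SE 0.21, limma unadjusted p = 0.0363). Its mouse paralogue Csf2rb2 was in 10 of 72 positive and 8 of 301 negative cells. That was too few for a test, and reads of these paralogues too may have been shared. Csf2ra, the alpha chain of the GM-CSF receptor, differed by 0.18 (SE 0.24), Il1rap, a chain of the IL-1 receptor, by 0.24 (SE 0.16) and Il6st, the signal chain of the IL-6 family, by -0.02 (SE 0.13). Il1r1, the IL-1 receptor, was at -0.17 (SE 0.17), with a positive difference on 1 plate of 6, and Il6ra, the IL-6 receptor, at -0.01 (SE 0.14). Il3ra, the IL-3 receptor alpha chain, was in 1 positive and 9 negative cells. Csf1r, the macrophage growth factor receptor, was in 0 positive and 1 negative cells.

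Flt3 encodes CD135, which both gates exclude at the cell surface. Its transcript was in 13 of 72 positive and 19 of 301 negative cells. It was in 28% and 15.4% of positive cells against 11.5% and 8.57% of negative cells on MPP1 plates 1 and 2. On the bled MPP1 plate it was in 0% of positive and 11.9% of negative cells, and on HSC plates 1, 2 and 3 in 0%, 27.3% and 12.5% of positive cells against 6.67%, 4.76% and 4.62% of negative cells. The share was higher in positive cells on 4 of the 6 plates. The log2 difference was 0.40 (SE 0.18, limma unadjusted p = 0.0341).

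Cd52, a small leukocyte surface glycoprotein, had the smallest p of all genes, although few cells carried it. It was found in 12 of 72 positive and 10 of 301 negative cells (3.32%). It passed the filter of 5% of cells only through the positive cells, so its place among the genes tested depended on the class in which it was high. Positive cells showed it in 37.5% on the bled MPP1 plate, 16% and 15.4% on MPP1 plates 1 and 2, and 0%, 18.2% and 12.5% on HSC plates 1, 2 and 3. Negative cells showed it in 4.76% on the bled MPP1 plate, 11.5% and 5.71% on MPP1 plates 1 and 2, and 0%, 4.76% and 0% on HSC plates 1, 2 and 3. The share was higher in positive cells on 5 plates, and on HSC plate 1 no cell showed the gene, which entered the fit as a difference of 0. The log2 difference was 0.81 (SE 0.18, limma unadjusted p = 0.000161, Benjamini-Hochberg adjusted p = 0.924).

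Cd53, a leukocyte tetraspanin, was in 23 of 72 positive and 37 of 301 negative cells (log2 difference 0.77, SE 0.31, unadjusted p = 0.0193 by limma). Its share was higher in positive cells on 4 of 6 plates, and its plate differences ran from -0.96 on HSC plate 1 to 2.26 on HSC plate 3. Ncf4, a cytosolic subunit of the phagocyte NADPH oxidase, was in 9 positive and 14 negative cells (log2 difference 0.40, SE 0.17, unadjusted p = 0.0268 by limma). The share of cells with Ncf4 was likewise higher in positive cells on 4 of 6 plates. Ncf1, another cytosolic subunit, was in 0 positive and 6 negative cells, and Cybb, the catalytic subunit of the oxidase, in none. Cyba, an oxidase subunit seen far more often, was in 42 of 72 positive and 186 of 301 negative cells. Its log2 difference was -0.12 (SE 0.39). Itgam, the CD11b integrin chain, was in 4 positive and 4 negative cells. Of the 10 tested genes of the surface and effector list, 8 were on the positive side, with a median difference of 0.35. The 2 on the negative side were Cyba and Lsp1, the latter at -0.27 (SE 0.40).

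**Figure D5:**
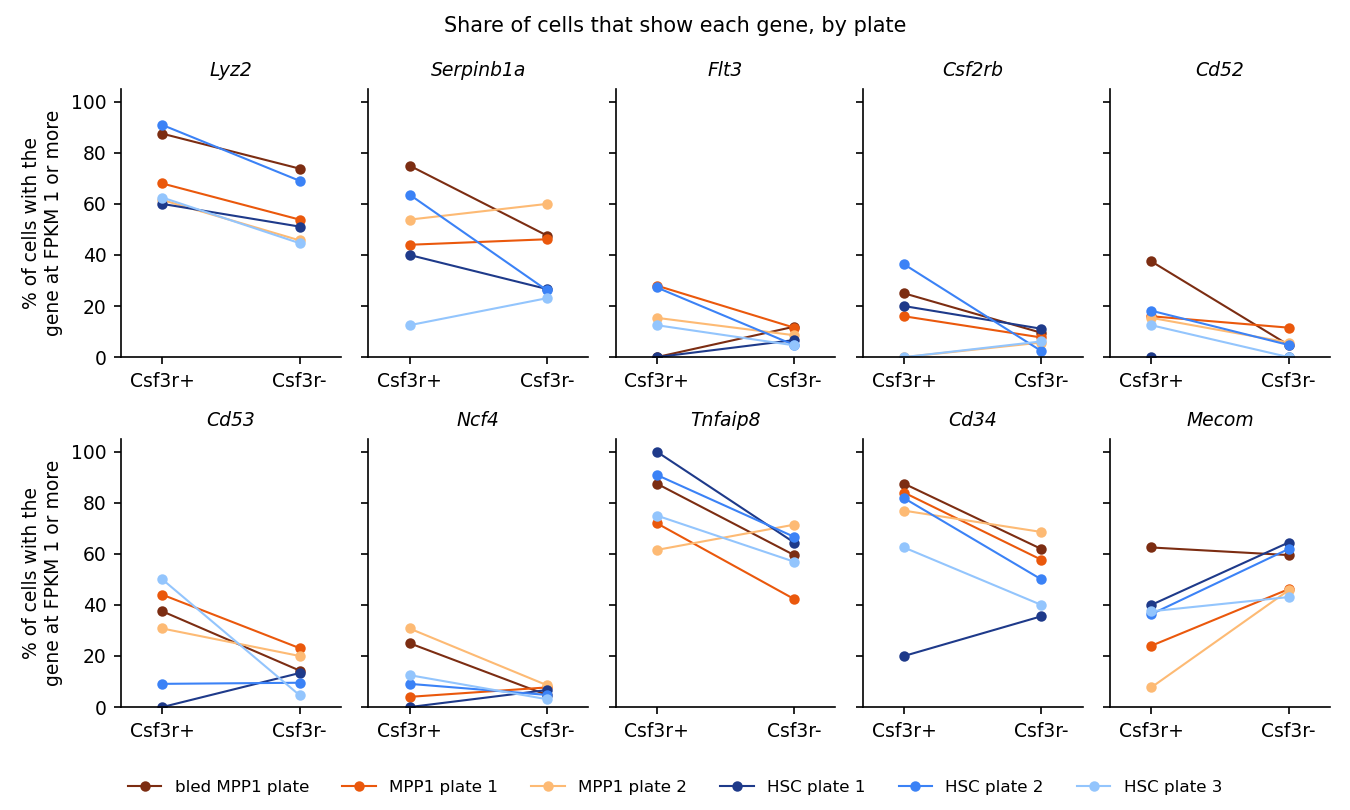
Percentage of cells with each gene at FPKM 1 or more, Csf3r+ cells left and Csf3r- cells right, 1 line a plate, for the 7 myeloid genes with an unadjusted p under 0.05 and for Tnfaip8, Cd34 and Mecom. Lyz2 is higher in Csf3r+ cells on 6 of 6 plates. Among the other myeloid genes, the lines of Serpinb1a, Flt3, Csf2rb, Cd53 and Ncf4 run in both directions.

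Downstream of the receptor, more signalling genes were on the positive than on the negative side. Of 21 pathway genes, 19 were tested, 13 with a positive (68.4%) and 6 with a negative difference, beside 48.5% of all genes positive, and the median was 0.14. The median of the 19 genes was negative on 3 of 6 plates. Jak1, one of the Jak kinases of the receptor, was in 63 of 72 positive and 259 of 301 negative cells (log2 difference 0.18, SE 0.38). Jak2 differed by -0.32 (SE 0.25). Stat3, the main transcription factor of the G-CSF signal, was in 41 positive and 121 negative cells (log2 difference 0.36, SE 0.35), and Stat5a differed by 0.29 (SE 0.37). Socs3, the feedback inhibitor of this receptor, was in 4 positive and 22 negative cells (log2 difference 0.08, SE 0.14), and Socs1 in 0 positive and 6 negative cells.

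Cish, a Stat5 target that dampens cytokine signals, was the pathway gene with the smallest p, and it lay on the negative side. Its mean level was 0.492 FPKM in positive cells on the bled MPP1 plate, 1.43 and 0.057 on MPP1 plates 1 and 2, and 3.23, 103 and 0.775 on HSC plates 1, 2 and 3. In negative cells the means were 36.6 FPKM on the bled MPP1 plate, 13.8 and 39.0 on MPP1 plates 1 and 2, and 76.3, 101 and 20.7 on HSC plates 1, 2 and 3. Positive cells were lower on every plate but HSC plate 2. The shares of cells that showed the gene were nearly equal, 28.2% ± 19.9 of positive and 28.8% ± 16.3 of negative cells (SD, n = 6 plates). The adjusted log2 difference was -0.71 (SE 0.30, limma unadjusted p = 0.0267, Benjamini-Hochberg adjusted p = 0.924), negative on 6 of 6 plates, where 2.8% of all genes were lower on every plate. Shc1, an adaptor to the Ras pathway, differed by -0.53 (SE 0.26), and Pim2, a Stat-induced survival kinase, by 0.50 (SE 0.28).

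Cd34, the surface marker that separates the gates, had a larger difference than any myeloid gene. Its transcript was in 87.5% of positive cells against 61.9% of negative cells on the bled MPP1 plate, and in 84% against 57.7% and 76.9% against 68.6% on MPP1 plates 1 and 2. On HSC plates 1, 2 and 3 it was in 20%, 81.8% and 62.5% of positive cells, against 35.6%, 50% and 40% of negative cells. HSC plate 1, with 5 positive cells, was the exception. The log2 difference was 1.46 (SE 0.38, limma unadjusted p = 0.000884, Benjamini-Hochberg adjusted p = 0.924).

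HSC program genes, which mark or maintain stem cells, were mixed: 7 of 17 tested were on the positive side, with a median of -0.10. Mecom, a transcription factor of stem cell self-renewal, was detected in 62.5% of positive cells on the bled MPP1 plate, 24% and 7.69% on MPP1 plates 1 and 2, and 40%, 36.4% and 37.5% on HSC plates 1, 2 and 3. The same shares in negative cells were 59.5% on the bled MPP1 plate, 46.2% and 45.7% on MPP1 plates 1 and 2, and 64.4%, 61.9% and 43.1% on HSC plates 1, 2 and 3. The share was lower in positive cells on every plate but the bled MPP1 plate. The log2 difference was -0.98 (SE 0.38, limma unadjusted p = 0.0163). Hlf, another stem cell transcription factor, lay on the other side (log2 difference 0.93, SE 0.39, limma unadjusted p = 0.0261), as did Ly6a, which encodes Sca-1 (0.98, SE 0.45, unadjusted p = 0.0379). Procr, the endothelial protein C receptor of HSC, differed by -0.45 (SE 0.38).

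Genes of the other lineages were compared in the same way. The plate medians of the 10 tested megakaryocyte genes were all negative. They were -0.69 on the bled MPP1 plate, -0.16 and -0.16 on MPP1 plates 1 and 2, and -0.22, -0.21 and -0.13 on HSC plates 1, 2 and 3. The plate medians of all genes lay between -0.15 and 0. Megakaryocyte genes had 3 of 10 on the positive side with a median of -0.20; Vwf, the clotting factor that marks platelet-biased stem cells, was in 9.11% ± 8.99 of positive and 14.5% ± 5.10 of negative cells (SD, n = 6 plates; log2 difference -0.33, SE 0.22), with a higher share in positive cells on HSC plate 1, and Pf4, a platelet chemokine, differed by -0.42 (SE 0.37). Of 5 tested erythroid genes 1 was on the positive side (median -0.02), with Gata1, the erythroid and megakaryocyte master regulator, at -0.41 (SE 0.22). Epor, the erythropoietin receptor, was in 2 of 72 positive and 22 of 301 negative cells. Among 3 tested lymphoid genes the median was 0.12. At an unadjusted p under 0.05 by limma, in either direction, the lists outside the myeloid ones gave 3 of 5 tested sort markers, 3 of 17 HSC program genes, 1 of 4 antigen presentation markers, the single endothelial marker tested, 1 of 9 other cytokine receptors, 1 of 14 interferon genes, 1 of 15 immediate early genes and 1 of 19 signalling genes, and 0 in the rest, beside 5.19% of all genes. The 3 sort markers are Cd34, Flt3, which stands in the myeloid lists too, and Ly6a, which stands among the HSC program genes too.

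A lean to the positive side was not limited to myeloid genes. Housekeeping genes had 9 of 10 on the positive side with a median of 0.09, S phase genes 13 of 19 with a median of 0.16, and immediate early genes 11 of 15 with a median of 0.18. G2/M genes had 6 of 23 on the positive side with a median of -0.12, and Mki67, a marker of cycling cells, differed by -0.25 (SE 0.31). Interferon response genes had 5 of 14 on the positive side with a median of -0.17, and Ifit1, an RNA-binding antiviral gene, was at -0.55 (SE 0.26, limma unadjusted p = 0.0442).

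Markers of antigen-presenting cells leaned to the positive cells too. All 4 tested genes were on the positive side, with a median of 0.35. H2-Aa, an MHC class II chain, was in 22 of 72 positive and 46 of 301 negative cells (log2 difference 1.13, SE 0.35, limma unadjusted p = 0.00361), higher on every plate but HSC plate 1. H2-Eb1, another class II chain, differed by 0.45 (SE 0.22) and Cd74, the invariant chain, by 0.25 (SE 0.33). Ciita, the class II transactivator, was in 2 positive and 2 negative cells. The summed FPKM of the 5 markers ran from 0 to 2870 in single positive cells and from 0 to 4696 in single negative cells, and their part in the myeloid values was not tested. Of 10 macrophage and monocyte markers, C1qa, C1qb, C1qc, Vcam1 and F13a1 were in no cell. Axl was in 3 positive and 11 negative cells, Ly6c2 in 1 positive and 2 negative cells. Ccr2 and Emr1 were each in 0 positive and 1 negative cells. Cd68 was in 3 positive and 21 negative cells. Emcn, an endothelial sialomucin that HSC also express, differed by 0.73 (SE 0.32), and Cdh5 was in no cell.

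Over all genes, the 10 with the smallest p on the positive side were, after Cd52, Ppcdc, Tnfaip8, Epc2, Cd34, Brf1, Vim, Ascc2, Nagk and Tatdn3. Ascc2 was in 14 of 72 positive and 15 of 301 negative cells. Like Cd52 it was in under 5% of negative cells and passed the filter only through the positive cells. Tnfaip8, a TNF-induced regulator of cell death, was in 55 of 72 positive and 185 of 301 negative cells. Its mean level was 63.8 to 173 FPKM in positive cells and 17.9 to 121 FPKM in negative cells over the plates, higher in positive cells on 6 of 6 plates (log2 difference 1.53, SE 0.37). Vim, the intermediate filament vimentin, was likewise higher on 6 of 6 plates, with 44.5 to 222 FPKM in positive cells and 18.4 to 104 FPKM in negative cells (log2 difference 1.45, SE 0.39). The ranges over plates overlapped for both genes.

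Rarer genes of this group included Ppcdc, an enzyme of coenzyme A synthesis, in 21 of 72 positive and 38 of 301 negative cells (log2 difference 1.12, SE 0.26). Epc2, a subunit of a histone acetyltransferase complex, was in 30 of 72 positive and 53 of 301 negative cells (log2 difference 1.15, SE 0.29), with its share higher in positive cells on 6 of 6 plates. Brf1, a subunit of the RNA polymerase III factor TFIIIB, Ascc2, Nagk, a kinase of N-acetylglucosamine, and Tatdn3 differed by 0.63 to 0.81. Il2rg, the common gamma chain of lymphoid cytokine receptors, differed by 1.39 (SE 0.40), and it was in 45 of 72 positive and 165 of 301 negative cells. Only 0.823% of all genes were higher in positive cells on every plate fitted.

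On the negative side the 10 genes of smallest p were Blmh, Cenpi, Nudt22, Gm13157, Arpc2, Sucla2, Sdpr, Ifi35, Stard7 and 2210018M11Rik. Blmh, the cysteine protease bleomycin hydrolase, was in 13 of 72 positive and 99 of 301 negative cells (log2 difference -1.27, SE 0.32), with a lower share in positive cells on 6 of 6 plates. Arpc2, a subunit of the actin-nucleating Arp2/3 complex, was in most cells of both classes, at 14.4 to 142 FPKM in positive and 114 to 168 FPKM in negative cells over the plates (log2 difference -1.20, SE 0.34). Nudt22 was in 0 of 72 positive and 31 of 301 negative cells. Sucla2, a subunit of the citric acid cycle enzyme succinyl-CoA ligase, differed by -1.06 (SE 0.30). The other 6 differed by -1.18 to -0.66, and none of these 20 genes had an adjusted p under 0.924 by limma with Benjamini-Hochberg adjustment.

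The difference between positive and negative cells was also compared between MPP1 and HSC plates, 3 of each. The test of this difference called 0 of 9111 genes (0%; limma with Benjamini-Hochberg adjustment, smallest adjusted p = 0.958), and 460 genes (5.05%) had an unadjusted p under 0.05, of which 235 (2.58%) were more positive on MPP1 plates. H2-Eb1 differed by 1.37 more in MPP1 than in HSC plates (SE 0.36, unadjusted p = 0.00114) and H2-Aa by 1.66 more (SE 0.63, unadjusted p = 0.0162), neither past the adjusted threshold. Lyz2 differed by -0.25 (SE 0.77) and Cd52 by 0.07 (SE 0.37) between the kinds of plate. The myeloid genes counted per cell gave 1.39 ± 1.06 more in positive cells on the 3 MPP1 plates and 1.33 ± 0.602 more on the 3 HSC plates. Immediate early genes had plate medians of 0.34 on the bled MPP1 plate and 0.82 and 0.91 on MPP1 plates 1 and 2, against -0.02, -1.17 and -0.18 on HSC plates 1, 2 and 3. The order of these medians followed the gate, and no test was made on the list.

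Among positive cells alone, a higher Csf3r level did not go steadily with more myeloid genes. Spearman's rho between the Csf3r level and the number of myeloid genes per cell, given as a description over the cells of 1 plate, was 0.23 over 25 cells of MPP1 plate 1, 0.07 over 13 cells of MPP1 plate 2 and 0.16 over 11 cells of HSC plate 2. It was 0.27 over 8 cells of HSC plate 3 and 0.21 over 5 cells of HSC plate 1. On the bled MPP1 plate it was -0.73 over 8 cells, where rho between Csf3r and the number of all genes detected was -0.55. The latter rho was -0.18 and -0.16 on MPP1 plates 1 and 2, and 0, 0.08 and 0.50 on HSC plates 1, 2 and 3. Cells of 1 plate share their preparation, and a deeper cell shows more genes of any kind.

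Bulk libraries of 1000 cells, 1 per sorted population and without replicates, place Csf3r along the tree of blood formation. In bulk, fewer cells with a transcript and less of it per cell cannot be told apart. The level was 55.2 FPKM in the granulocyte-macrophage progenitors of gate GMP-11, 8.81 in MPP3, 7.61 in preGM, 7.52 in GMP-7, 5.50 in common myeloid progenitors and 2.48 in MPP2. It was 0.869 FPKM in MPP4, 0.393 in common lymphoid progenitors, 0.176 in MPP1 and 0.126 or less in the other 9 populations, with HSC, mature megakaryocytes, CFU-E and pro-erythrocytes listed at 0. The myeloid gates thus stood at the top and the erythroid gates at the bottom. The bulk HSC library is labelled CD34+, unlike the single HSC. Bulk MPP1 and HSC lay far below the mean of the single cells of the same name. Over all cells used, that mean was 4.11 FPKM on the bled MPP1 plate and 28.9 and 16.2 on MPP1 plates 1 and 2. For HSC it was 2.55 FPKM on the bled plate and 3.63, 20.7 and 2.13 on HSC plates 1, 2 and 3. The reason for this gap was not tested.

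The single-cell differences were also set against the bulk libraries, which are measurements of their own. Of the 251 genes higher in positive cells at an unadjusted p under 0.05, 204 stood in the bulk table, and 149 of them (73.0%) were higher in GMP-11 than in bulk HSC. The same held for 134 of 186 genes (72.0%) that were lower in positive cells and for 72.9% of all 7633 genes tested that stood in the bulk table. The median log2 difference, GMP-11 minus HSC, was 0.78 in the higher genes, 0.69 in the lower genes and 0.70 in all genes. The genes that leaned to the positive cells were thus no more often higher in bulk GMP-11 than genes at large, as far as 1 library of each can show. Of the 7 myeloid genes with an unadjusted limma p under 0.05, Lyz2 had no bulk value. Serpinb1a was at 58.9 FPKM in GMP-11 and 0.528 in HSC, and Ncf4 at 4.23 in GMP-11 and 0 in HSC. Cd52 was at 2.15 in GMP-7, 0.286 in GMP-11 and 0.214 in HSC. Flt3 was highest in common lymphoid progenitors, at 376 FPKM against 15.4 in GMP-11. Cd53 and Csf2rb were highest in the lymphoid gate CLP Sca1 high, at 17.0 and 4.00 FPKM, against 4.12 and 1.90 in GMP-11.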

How the data were processed

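Single cells were read with the Smart-seq protocol and sorted populations in bulk, per the labels' protocols. The authors deposited FPKM values, 1 per gene and library; per the submitters' processing notes, TopHat 1.3.3, Cufflinks 1.2.1 and the mouse build mm9 were used, with Bowtie2 2.2.1 listed too for HSC plate 3. FPKM is relative to each library's own total, the 3 single-cell tables were made separately, and read depth is unknown. A value of 0 can be a failed estimate. Columns were matched to wells by title. HSC plate 1 also has a repeat run of 96 samples, not analysed here, and its columns could hold either run. Wells with 0 or several labelled cells were left out, and no doublet caller was run.

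Within each plate, log2(FPKM + 1) of each gene was regressed by least squares over cells on Csf3r class and log2 of the number of genes detected. All comparisons were thus made within tables. The class coefficients of the 6 plates with at least 3 cells per class were tested with limma 3.58.1 (R 4.3.3; intercept only, or MPP1 against HSC), with trend, empirical Bayes and weights from both cell numbers, in genes at FPKM 1 or more in at least 5% of cells. The p-values were adjusted by Benjamini-Hochberg over 9111 genes, threshold 0.05, two-sided. Log2 differences understate the change of low genes. The plate is the replicate, and p-values measure only the spread between these plates. The fit pairs both classes by plate, since they share it. Other computing used Python 3.11.15, numpy 2.4.6 and scipy 1.17.1. The fit was also run on simulated data, with planted shifts larger than any limma difference reported here. That run therefore does not show how the fit handles differences of the reported size.

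The members and gene lists were chosen with earlier results of these data known. Of the list genes, 294 matched by symbol, 7 by a RefSeq synonym and 3 not at all. Named were the 10 genes of smallest p per direction, genes of the myeloid and signalling lists, in other lists up to 3 genes of smallest p (here those under 0.15, a limit set after values were seen), and Vwf, Pf4, Procr, Cd74 and Mki67. Some genes that the rule names are not reported here. Other genes, such as Kit, and the per-cell count of myeloid genes were chosen after values were seen. Alternatives changed the covariate, pseudocount (0.1 and 10), weights, gene filter, Csf3r threshold (5 FPKM), cell filter (500 and 2000 genes), plates and plate block.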

Additional observations from a re-analysis of the deposited data

Results flagged for a closer look

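Values of single plates were compared within the 6 plates, and a plate was singled out where its gap to the nearest other plate was large beside the whole range (Dixon's test at 95%). This was done for 58 sets of plate values, and 3 plates stood out, where chance alone singles out about 1 in 20 sets. All 3 were the bled MPP1 plate. Its positive cells had a median of 1134.5 more genes detected than its negative cells, while the other plates lay between -108.5 and 101. Its Lyz2 difference was -0.56 on the log2 scale, while the other plates lay between 1.05 and 1.63. Its difference in Stard7, a lipid transfer protein, was -2.37, while the other plates lay between -1.04 and -0.52.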

How the results depend on the processing

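The plate is a block in the fit, because both classes of cells were compared within it. The number of genes past the adjusted threshold was 0 under every alternative run, for all genes, the listed genes and the comparison of MPP1 with HSC plates. The number at an unadjusted p under 0.05 was 473; it was 775 with no gene filter, where more genes were tested, and 245 with no replicate block. With no replicate block no gene was called either. Leaving out each plate gave 413 to 479. The count of 7 myeloid genes at an unadjusted p under 0.05 was 4 with the 3 nearest negatives by genes detected, with detection in place of level, with equal plate weights and with Csf3r at FPKM 5 or more. It was 5 with genes in at least 5% of negative cells, where Cd52 and Ncf4 were not tested, and 3 with genes in at least 10% of cells, with no gene filter and on MPP1 plates only, 2 on HSC plates only, and 2 to 7 when each plate was left out; the cause was not tested. In all of these fits the share of myeloid genes was above that of all genes, 7.14% to 29.6% beside 1.51% to 4.10%. Myeloid genes per cell differed by 1.15 to 1.57 when each plate was left out. With Csf3r above 0, the share of positive cells was 45.8% on MPP1 plate 2, 12.5% on the bled HSC plate, 20% on HSC plate 1, 30.2% on HSC plate 2, 12.3% on HSC plate 3, 20% on the bled MPP1 plate and 49.0% on MPP1 plate 1. Among named genes, 14 values changed sign. On HSC plates only, H2-Eb1 was at -0.36, Klf4 at -0.54, Pf4 at 0.37 and Sfpi1 at -0.18. On MPP1 plates only, Irf5 was at -0.092 and Procr at 0.039. With no replicate block Cd74 was at -0.062 and Mki67 at 0.081, and with the 3 nearest negatives Mki67 was at 0.043. Sfpi1 was at -0.093 in cells with at least 2000 genes and at -0.073 with both plates of bled mice left out. With each plate left out, Cd74 ranged from -0.085 to 0.38, Procr from -0.67 to 0.024 and Sfpi1 from -0.073 to 0.22. The other 1278 gene values kept their direction, and 497 list medians moved by less than their spread while 8 moved by more. With 5 to 25 positive cells on the plates fitted and no read depth, modest differences may have been missed, in rarely detected genes among others. The size of difference that the fit can detect was not measured.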
